A study of Rattus norvegicus with 4 samples.

Results

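The genes described here are the chemokines of the rat liver and the receptors that read them, chosen by their symbols alone: CC, CXC, XC and CX3C ligands, the receptors Ccr, Cxcr, Cx3cr1 and Xcr1, and the atypical receptors named Ackr. The deposited tables hold 53 such genes among 16999 named genes, with 34 ligands, 17 signaling receptors and 2 atypical receptors. Their levels were measured by RNA sequencing in 4 liver libraries of wild-type rats, 1 library per group. Rats inhaled sevoflurane at 4.5% or desflurane at 6%, a pair of halogenated inhalational anesthetics, and were decapitated either as soon as they lost consciousness (0 h) or after 6 h of anesthesia. The 0 h animals had therefore also breathed the agent, briefly. Strain, age and sex are not given in the labels. Livers of the 0 h and 6 h animals were taken 6 h apart, so that effects of 6 h of anesthesia and of the hour of harvest cannot be told apart. With 1 library per group there were no replicates, no p-value was computed, and every difference below is one between single libraries.

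Chemokines are small secreted proteins that guide leukocytes along concentration gradients through G protein-coupled receptors on the responding cell. Their families are named for the spacing of the first cysteines of the protein. In the liver, resident macrophages, endothelial and stromal cells, hepatocytes and lymphocytes all release chemokines, and many chemokine genes are switched on by nuclear factor kappa B (NF-kB) and by interferon. Atypical receptors bind chemokines without coupling to G proteins, and so remove or redistribute them.

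Promoters were read for the more abundant members where the promoter table had an entry. *Ccl4* and *Ccl5* were among those without an entry. Of the 17 members whose TPM averaged 1 or more over the libraries, 14 had an entry in the RefSeq promoter table of the rat assembly GRCr8, and the 250 bases before the annotated start were searched on both strands for short motifs. The NF-kB core, searched as GGAATTTCC, GGACTTTCC, GGAAATTCC or GGGATTTCC, was found in 3 of the 14 promoters, those of *Cxcl1*, *Cxcl10* and *Cxcl11*, and in 0.831% of the 33469 promoters of the table. GGAATTTCC and GGAAATTCC are reverse complements of each other, so that on 2 strands they are the same search. The interferon-stimulated response element core GAAANNGAA was found in 1 of the 14, that of *Cxcl10* (8.12% of all promoters), and the interferon-gamma activated site TTCNNNGAA in *Cxcl11* and *Ccl24* (7.67%). The E-box CACGTG, the letters read by clock factors, was found in 0 of the 14 (5.59%). The core of the glucocorticoid response element, ACANNNTGT, was found in *Cxcl1* only (5.81%). A match is a stretch of letters, and binding was not measured. The promoters of the 3 *Cxcr3* ligand genes, which lie side by side, and of *Cxcl1* and *Xcl1*, which had the lowest 6 h to 0 h ratios with desflurane, are shown 5′ to 3′ with NF-kB, interferon-response and interferon-gamma motifs in capitals.
Cxcl9, chr14:16006916-16007165, plus strand: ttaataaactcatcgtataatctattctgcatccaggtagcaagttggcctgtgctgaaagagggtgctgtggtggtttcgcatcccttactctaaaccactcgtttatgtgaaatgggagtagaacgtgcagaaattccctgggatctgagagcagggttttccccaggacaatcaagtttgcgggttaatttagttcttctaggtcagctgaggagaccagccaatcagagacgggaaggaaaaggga
Cxcl10, chr14:15988816-15989065, plus strand: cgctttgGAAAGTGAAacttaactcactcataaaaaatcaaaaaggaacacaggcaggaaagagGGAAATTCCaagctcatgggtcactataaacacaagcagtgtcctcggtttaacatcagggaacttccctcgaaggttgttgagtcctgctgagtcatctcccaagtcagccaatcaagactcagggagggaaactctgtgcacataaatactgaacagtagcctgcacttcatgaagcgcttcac
Cxcl11, chr14:15973478-15973727, plus strand: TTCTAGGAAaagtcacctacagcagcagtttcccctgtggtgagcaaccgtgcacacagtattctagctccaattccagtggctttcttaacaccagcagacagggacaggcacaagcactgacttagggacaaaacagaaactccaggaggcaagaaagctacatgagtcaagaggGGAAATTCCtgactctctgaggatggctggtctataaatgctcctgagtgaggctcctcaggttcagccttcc
Cxcl1, chr14:17479322-17479571, minus strand: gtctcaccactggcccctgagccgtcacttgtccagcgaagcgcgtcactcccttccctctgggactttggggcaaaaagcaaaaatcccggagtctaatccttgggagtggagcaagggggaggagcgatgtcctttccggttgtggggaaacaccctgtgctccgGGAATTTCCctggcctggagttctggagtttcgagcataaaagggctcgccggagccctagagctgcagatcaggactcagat
Xcl1, chr13:79785441-79785690, minus strand: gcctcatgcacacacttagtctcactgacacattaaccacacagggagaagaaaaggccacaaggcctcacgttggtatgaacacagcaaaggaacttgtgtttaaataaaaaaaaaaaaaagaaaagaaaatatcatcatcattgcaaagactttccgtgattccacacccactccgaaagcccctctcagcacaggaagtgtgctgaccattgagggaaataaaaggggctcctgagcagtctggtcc

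In these windows *Cxcl9* and *Xcl1* held none of the motifs searched. The NF-kB core lay 83 to 75 bases before the start in *Cxcl1*, 186 to 178 in *Cxcl10* and 73 to 65 in *Cxcl11*. The response element core of *Cxcl10* lay 243 to 235 bases before its start, and the interferon-gamma site of *Cxcl11* began 250 bases before its start. For *Cxcl11* the loci assembled from the reads began at 17192863 to 17193054 in rn6, before the annotated start at 17195395. Whether the annotated start is the one in use in these livers was not tested.

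Levels are given as TPM, a transcript share scaled for gene length and library size, which permits comparison of genes within a library. Calls rested on a rule of size: the higher of 2 values had to exceed a TPM of 2 and to be more than 2 times the lower. Log2 differences were taken after adding 1 to each TPM, so that differences of low genes come out too small. The sevoflurane libraries held 3.50 (0 h) and 5.38 (6 h) Gb and the desflurane libraries 5.29 and 5.57 Gb of aligned bases, and a TPM of 2 stood for a mean coverage of 4.72, 6.84, 6.90 and 7.28 reads per base in that order. All 8 hepatocyte markers were found, at a summed TPM of 94431 to 105988, with albumin (*Alb*) at 53282 to 58868.

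A few ligands were abundant and most other members lay near the limit of detection. Of the 53 genes, 17 had a mean TPM of 1 or more, 27 lay above 0 and under 1, and 9 were listed at 0 in all 4 libraries. The genes listed at 0 were *Ccl12*, *Ccl20*, *Ccl22*, *Ccl25*, *Cxcl3*, *Cxcl6*, *Ccr4*, *Ccr1l1* and *Cxcr1*. A further 14 were listed at 0 in some libraries. Among 20 CC ligands 7 reached a mean TPM of 1, among 12 CXC ligands 6, of 2 XC and CX3C ligands 1, of 17 signaling receptors 2, and of 2 atypical receptors 1. The members just inside the limit of 1 were *Ackr3* (mean TPM 1.14) and *Cxcl10* (1.46), and those just outside it *Ccl3* (0.849) and *Cxcl14* (0.789). The summed TPM of all members was 594 and 438 in the sevoflurane 0 h and 6 h libraries and 610 and 492 in those of desflurane. Between 88.7% and 91.4% of that sum came from *Ccl9*, *Ccl6* and *Cxcl12*. The other 50 members together reached 59.9, 45.9, 69.2 and 42.3 TPM.

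**Figure D1:**
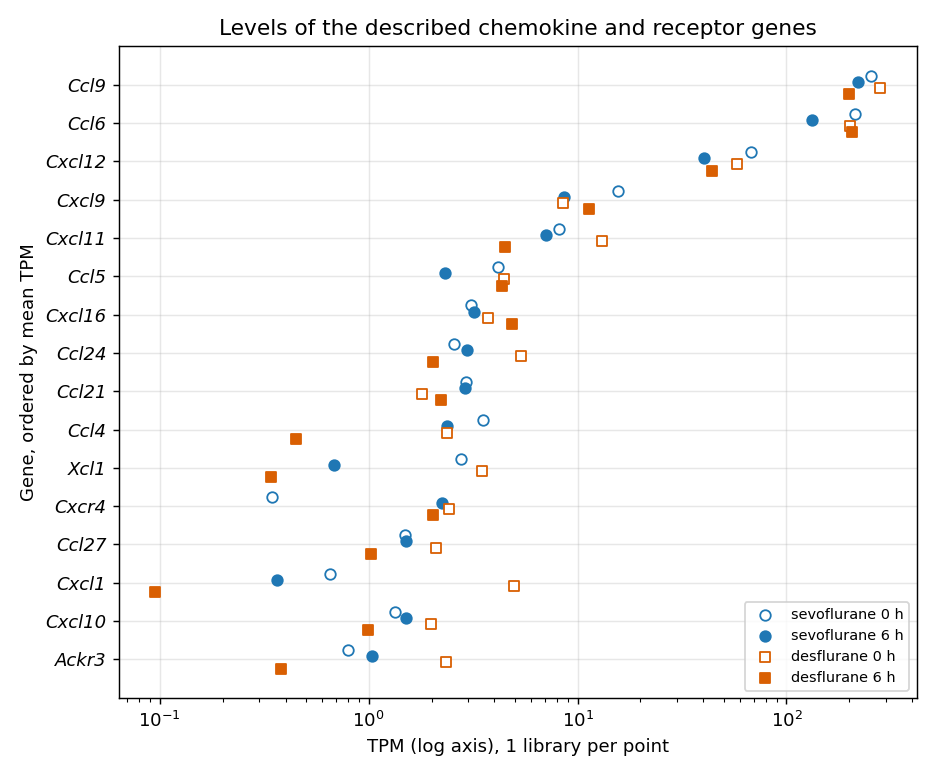
TPM of 16 genes whose mean reached 1 TPM (log axis), with 1 point per library, circles for sevoflurane, squares for desflurane, open for 0 h and filled for 6 h. *Ccl9*, *Ccl6* and *Cxcl12* lie above 40 TPM in every library and the others below 16, and the spread between libraries is widest for *Cxcl1*, *Xcl1*, *Cxcr4* and *Ccl4*.

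The most abundant members were a pair of neighboring CC ligands of *Ccr1* known from macrophages and other myeloid cells. *Ccl9*, rank 335 of all named genes, stood at 254 and 219 TPM in the sevoflurane 0 h and 6 h libraries and at 281 and 199 in those of desflurane. Both 6 h values lay below both 0 h values, with 6 h to 0 h ratios of 0.86 and 0.71, short of a call. *Ccl6*, rank 423, stood at 212 and 133 TPM with sevoflurane and at 202 and 206 with desflurane, so that the sevoflurane 6 h library alone was low (ratio 0.63). Both lie on chromosome 10 of the build rn6, *Ccl9* from 70783426 to 70788309 and *Ccl6* from 70798118 to 70802750. How reads that match more than 1 related gene were shared out is not given in the sources used here.

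Macrophage markers were lower at 6 h in sum with sevoflurane and higher with desflurane. All 13 Kupffer cell and macrophage markers found in the tables averaged more than 1 TPM, and their summed TPM was 647 and 552 in the sevoflurane 0 h and 6 h libraries and 612 and 719 in those of desflurane. None of the 13 was called with either agent, and the median log2 difference over the list was -0.26 with sevoflurane and 0.30 with desflurane. Against these directions, *Cd163* (19.5 to 22.8 TPM) and *Mrc1* (24.6 to 28.3) were higher at 6 h with sevoflurane. *Lyz2* (15.7 to 9.11) was lower with desflurane. *Clec4f*, a Kupffer cell lectin, stood at 134, 112, 134 and 141 TPM (sevoflurane 0 h and 6 h, then desflurane 0 h and 6 h), and *C1qa*, a complement subunit made by macrophages, at 117, 97.1, 117 and 120. The part of macrophages in the level of *Ccl6* was not tested. In whole liver, fewer cells of a type and less RNA per cell cannot be told apart.

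*Cxcl12*, the stromal ligand of *Cxcr4* and *Ackr3* that retains hematopoietic cells in their niches, followed at rank 1153 of all named genes. Its TPM was 67.7 and 40.1 with sevoflurane and 58.0 and 44.2 with desflurane. Both 6 h values lay below both 0 h values, with ratios of 0.59 and 0.76, and neither was called. The deposited coverage of *Cxcl12* per unit of FPKM was 0.377, 0.375, 0.373 and 0.379 of the library median in the 4 libraries. Its level against other genes therefore depends on which deposited column is read, while its ratio between libraries hardly does. Stellate cell and fibroblast markers, whose cells are a known source of this ligand, had a summed TPM of 160 and 228 with sevoflurane and 170 and 234 with desflurane. Of these sums *Col3a1* alone gave 84.3 and 135, and 94.6 and 146. With sevoflurane, of 11 markers above the minimum, 1 was called higher (*Rgs5*) and 1 lower (*Pdgfrb*), beside 5.04% and 3.71% of all named genes. With desflurane 0 were called, beside 4.1% higher and 5.55% lower. The part of these cells in the level of *Cxcl12* was not tested.

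The ligands of *Cxcr3*, which draw activated T cells and natural killer (NK) cells and are classically induced by interferon gamma, lie within 38.3 kb of each other on chromosome 14 (rn6 17195395 to 17233743). *Cxcl9* stood at 15.6 and 8.59 TPM with sevoflurane and at 8.50 and 11.3 with desflurane. The sevoflurane 0 h library alone was high, and the other 3 lay between 8.50 and 11.3. *Cxcl11* stood at 8.19 and 7.08 with sevoflurane and at 13.2 and 4.50 with desflurane, and was called lower with desflurane (2.92-fold). Both 6 h values of *Cxcl11* lay below both 0 h values. *Cxcl10* stood at 1.34, 1.52, 1.98 and 0.988 TPM in the same order, too low in every library for the named row to be called. The 3 genes thus had 3 different orders of the libraries, although their summed TPM was alike with both agents: 25.2 and 17.2 with sevoflurane, and 23.6 and 16.8 with desflurane, ratios of 0.68 and 0.71. *Cxcl10* and *Cxcl11* overlap *Art3* on the opposite strand, which was at 0.0939 to 0.435 TPM.

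A pair of inflammatory CC ligands from the same cluster on chromosome 10 did not share a pattern. *Ccl5*, released by T and NK cells, stood at 4.16 and 2.31 TPM with sevoflurane and at 4.46 and 4.35 with desflurane, so that it was low in the sevoflurane 6 h library only (ratio 0.56). *Ccl4*, a macrophage inflammatory protein, stood at 3.51 and 2.37 with sevoflurane and at 2.36 and 0.448 with desflurane, and was called lower with desflurane (5.27-fold). The mean coverage behind its desflurane values was 8.15 reads per base at 0 h and 1.63 at 6 h. The desflurane 6 h library lay apart from the other 3 libraries, and was also called lower than sevoflurane 6 h (5.28-fold).

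*Xcl1*, the ligand that NK and CD8 T cells use to attract cross-presenting dendritic cells, was the only member called lower with both agents. It stood at 2.78 and 0.681 TPM with sevoflurane, 4.08-fold lower, and at 3.48 and 0.339 with desflurane, 10.2-fold lower. Both 6 h libraries were low and both 0 h libraries high, so the call did not depend on which 0 h library was used: the log2 difference was -1.17 and -1.74 against the agent's own control and -1.41 and -1.50 against the other. Over all genes above the minimum in both comparisons, 1.5% were called lower with both agents, against 1 of 13 members. The mean coverage behind the 6 h values was 2.33 and 1.23 reads per base, against 6.56 and 12 at 0 h. Its receptor *Xcr1* lay between 0.110 and 0.182 TPM in the 4 libraries.

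Markers of T and NK cells were found for 16 of 16 genes of the list, 8 of them at a mean TPM of 1 or more. Their summed TPM was 30.5 and 24 in the 0 h libraries and 19.0 and 21.1 in the 6 h libraries (sevoflurane first). With sevoflurane 4 of 6 markers above the minimum were called lower and 0 higher, beside 3.71% and 5.04% of all named genes. With desflurane 2 of 4 were called lower and 0 higher, beside 5.55% and 4.1%. *Cd8a*, the CD8 coreceptor, was called lower with both agents (2.24 to 1.08 and 3.08 to 0.60 TPM), as was *Klrk1*, an activating NK receptor (3.81 to 1.28 and 3.34 to 0.91). *Nkg7* and *Prf1*, called lower with sevoflurane only, were also called lower in the desflurane than in the sevoflurane control. With desflurane *Nkg7* (0.942 to 1.51 TPM) and *Klrd1* (1.01 to 1.22) were higher at 6 h, and *Prf1* (1.04 to 0.875) was lower. *Gzma*, a granule protease, stood at 5.49, 3.24, 3.97 and 3.36 TPM, and *Cd4*, which rat macrophages also carry, at 7.35, 7.39, 5.71 and 7.99. No marker of the list was at 0 in all libraries, while *Cd3e* was listed at 0 in both 0 h libraries. Their part in the level of *Xcl1* was not tested.

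*Cxcl1*, a ligand of *Cxcr2* that recruits neutrophils, had the widest range of ratios among the 17 members. It stood at 0.652 and 0.365 TPM with sevoflurane and at 4.98 and 0.0952 with desflurane. The desflurane 0 h library alone was high. The gene was called lower with desflurane (52.4-fold, resting on a mean coverage of 0.346 reads per base at 6 h) and called higher in the desflurane than in the sevoflurane control (7.64-fold). Against the sevoflurane control the log2 difference of the desflurane 6 h library was -0.59, in place of -2.45. Its neighbors in a cluster of 130.9 kb on chromosome 14 were nearly silent: *Cxcl2* was listed at 0 in 3 libraries and at 0.075 TPM in the desflurane 0 h library, and *Cxcl3* and *Cxcl6* at 0 throughout. The receptor *Cxcr2* was likewise above 0 in the desflurane 0 h library only, at 0.089 TPM. Of the 11 neutrophil markers found, 2 averaged 1 TPM or more. *S100a8* stood at 0.740 and 2.19 TPM with sevoflurane, called higher, and at 0.812 and 1.27 with desflurane. *S100a9* stood at 1.25 and 1.68 with sevoflurane and at 2.15 and 0.504 with desflurane, called lower. With each agent 1 marker was above the minimum and called, beside 5.04% of all named genes higher with sevoflurane and 5.55% lower with desflurane. *Mpo*, *Elane* and *Fpr1* were at 0 in every library. The summed TPM of the list was 2.35 and 4.60 with sevoflurane and 3.36 and 2.52 with desflurane. The part of these cells in the level of *Cxcl1* was not tested.

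*Ccl24* and *Ackr3* were likewise highest in the desflurane control. *Ccl24*, an eotaxin that attracts eosinophils through *Ccr3*, stood at 2.55 and 2.97 TPM with sevoflurane and at 5.34 and 2.03 with desflurane. It was called lower with desflurane (2.64-fold) and higher in the desflurane than in the sevoflurane control (2.10-fold), and only the desflurane 0 h library stood apart. *Ackr3*, the scavenger of *Cxcl12*, stood at 0.793, 1.03, 2.35 and 0.382 TPM in the order sevoflurane 0 h, 6 h, desflurane 0 h, 6 h, 6.14-fold lower with desflurane and 2.96-fold higher in its control than in that of sevoflurane. Against the sevoflurane control the log2 differences of the desflurane 6 h library were -0.23 for *Ccl24* and -0.37 for *Ackr3*, where neither was called.

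*Cxcr4*, the receptor of *Cxcl12* on leukocytes and progenitors, was the only member called higher with an agent. It stood at 0.346 and 2.25 TPM with sevoflurane and at 2.43 and 2.03 with desflurane. The sevoflurane 0 h library alone was low, at a mean coverage of 0.817 reads per base, and the 2 controls differed 7.02-fold while the 6 h libraries differed 1.11-fold. Against the desflurane control the log2 difference of the sevoflurane 6 h library was -0.08, in place of 1.27, so that the direction of this call turned with the control.

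Among the remaining ligands *Cxcl16*, the membrane-bound ligand of *Cxcr6* found on macrophages and sinusoidal endothelium, stood at 3.07 and 3.18 TPM with sevoflurane and at 3.74 and 4.84 with desflurane, the highest value being at desflurane 6 h. *Ccl21*, the lymphatic endothelial ligand of *Ccr7*, stood at 2.91 and 2.90 with sevoflurane and at 1.79 and 2.21 with desflurane, with little difference between times. *Ccl27*, a ligand of *Ccr10* known from skin, stood at 1.5 TPM in both libraries with sevoflurane and at 2.10 and 1.03 with desflurane, and was called lower with desflurane by a narrow margin (2.04-fold), a call that ended under both other scalings (6 lower in place of 7). Its row meets that of *Il11ra1* on the opposite strand, which was at 13.3 to 19.8 TPM. Whether strand was used in the counting is not stated. Of the 27 members above 0 and under a mean TPM of 1, none reached a TPM of 2 in any library, so none could be called. *Ccl19*, the other ligand of *Ccr7*, stood at 1.06 and 0.277 TPM with sevoflurane and at 0.900 and 0.142 with desflurane, and was singled out after its values were seen.

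Counted over the family, the agents differed in how many members were called. With sevoflurane, of 13 members above the minimum 1 was called higher (*Cxcr4*) and 1 lower (*Xcl1*), beside 5.04% and 3.71% of all named genes. With desflurane, of 16 members 0 were called higher and 7 lower (*Cxcl1*, *Xcl1*, *Ackr3*, *Ccl4*, *Cxcl11*, *Ccl24* and *Ccl27*), beside 4.1% and 5.55%. Most members have low levels. Among genes with a higher TPM under 16, a band chosen after the values were seen, 4.63% were called higher and 3.82% lower with sevoflurane, where 10 members gave 1 and 1. In the same band 3.5% were called higher and 6.56% lower with desflurane, where 13 members gave 0 and 7.

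The controls differed from each other as well. Of 16 members above the minimum, 4 were called higher in the desflurane than in the sevoflurane 0 h library (*Cxcl1*, *Cxcr4*, *Ackr3* and *Ccl24*) and 0 lower, beside 1.96% and 0.799% of all named genes. Between the 6 h libraries, of 12 members 0 were called higher and 1 lower (*Ccl4*) with desflurane, beside 2.21% and 1.77%. When each 6 h library was set against the other agent's control, the sevoflurane library had 0 members higher and 3 lower of 16 (*Xcl1*, *Cxcl1* and *Ackr3*), beside 3.24% and 3.97% of all genes. The desflurane library then had 1 higher (*Cxcr4*) and 2 lower (*Xcl1* and *Ccl4*) of 13, beside 6.13% and 4.59%. *Xcl1* with both agents and *Ccl4* with desflurane were thus the calls that held against either control. On the FPKM column, whose values are smaller, *Ccl4* with desflurane and *Xcl1* with sevoflurane were not called. With a minimum TPM of 5 neither gene was called with either agent.

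**Figure D2:**
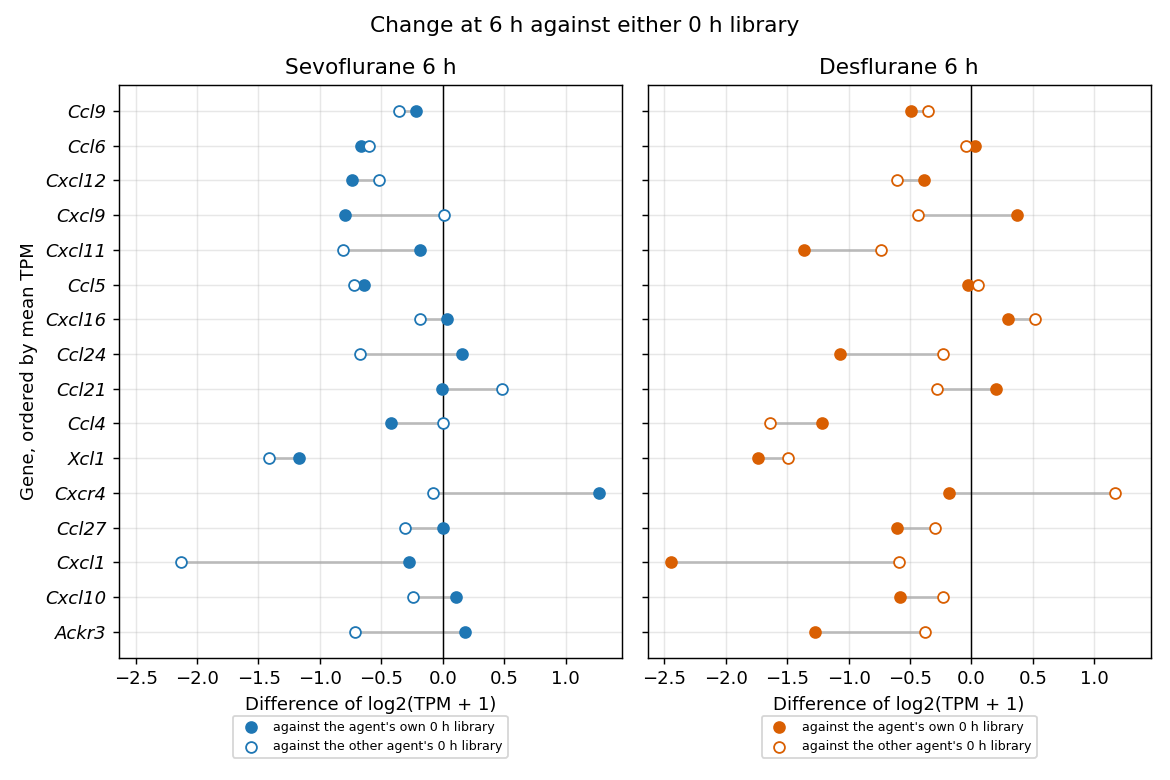
Difference of log2(TPM + 1) of 16 genes between the sevoflurane 6 h library (left) or the desflurane 6 h library (right) and a 0 h library, filled for the agent's own control and open for the other agent's control, with a line between the 2 values. The distance between filled and open points is the difference between the controls: it is widest for *Cxcl1* and *Cxcr4*, and *Xcl1* lies below -1.1 at all 4 points.

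The median log2 difference over the 17 members was -0.22 with sevoflurane and -0.49 with desflurane, beside 0.05 and -0.10 over the 9201 named genes that averaged 1 TPM or more. The difference was negative in 11 of 17 members with sevoflurane (44.5% of all genes) and in 13 of 17 with desflurane (61.7%). Between the controls the median was 0.22 for members and 0.11 for all genes. Under a median-of-ratios scaling this last value for all genes moved by -0.11, *Ccl24* lost its call between the controls and *Cxcl9* was called lower in the desflurane control. Both 6 h libraries lay below both 0 h libraries in 6 of 17 members, among them *Ccl9*, *Cxcl12*, *Cxcl11*, *Xcl1* and *Cxcl1*, and above in 0, beside 27.9% and 22.8% of all genes. The share of members below both 0 h libraries is near that of all genes.

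Receptors were low throughout. The summed TPM of receptors, atypical ones included, was 8.94 and 8.68 with sevoflurane and 13.3 and 7.0 with desflurane, against 585, 429, 597 and 485 for ligands. In 17 pairings of a receptor with its known ligands, the ligand sum exceeded the receptor in every library in 11, and 3 receptors averaged 1 TPM or more. The widest gap was at *Ccr1*, whose mean TPM was 0.174 beside a mean ligand sum of 431 from *Ccl3*, *Ccl5*, *Ccl6*, *Ccl7* and *Ccl9*. *Cxcr3* had a mean of 0.226 beside 20.7 for its ligands, and *Cxcr4* 1.76 beside 52.5. The reverse order was found for *Ccr6* and *Ccr9*, which had reads while their ligands *Ccl20* and *Ccl25* were listed at 0, and for *Cx3cr1* in the means (0.302 beside 0.143).

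**Figure D3:**
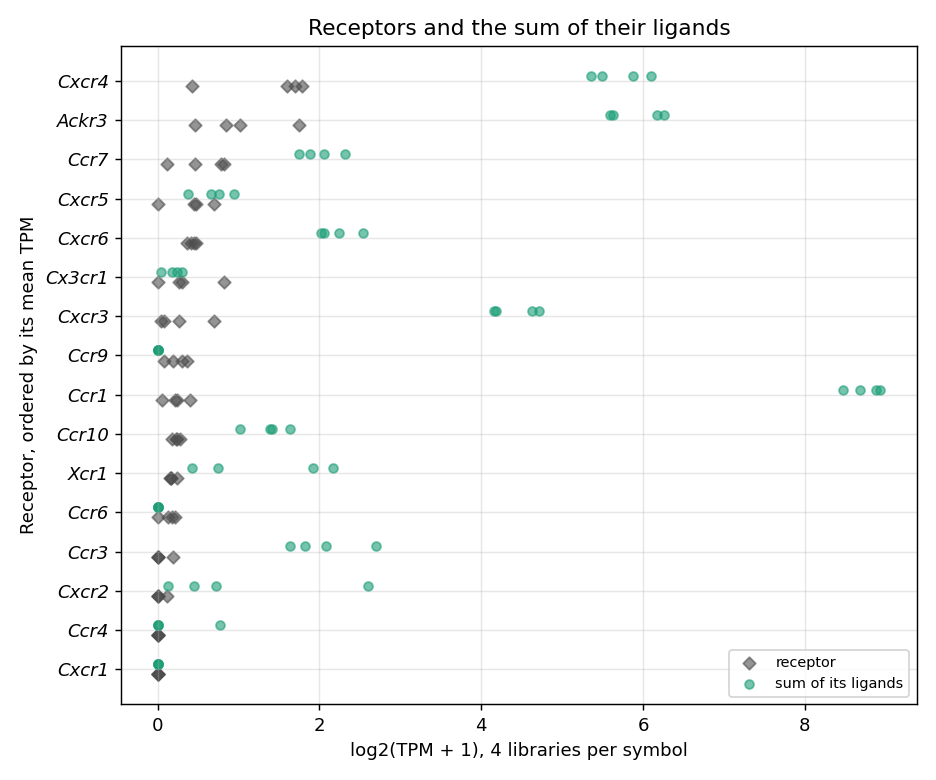
log2(TPM + 1) of 16 chemokine receptors (gray diamonds) and of the sum of their ligands (green circles), 4 libraries per symbol, ordered by the mean TPM of the receptor. Most receptors lie near 0, while the ligand sums of *Ccr1*, *Cxcr4*, *Ackr3* and *Cxcr3* lie above 4 in every library.

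Position in the genome grouped the members. In rn6, 34 members lay in 9 clusters whose neighbors were less than 500000 bp apart, and 19 were alone. Levels differed between clusters of like genes. On chromosome 10 the cluster of *Ccl5*, *Ccl9*, *Ccl6*, *Ccl3* and *Ccl4* (146.3 kb) summed to 475 and 357 TPM with sevoflurane and 490 and 411 with desflurane. The cluster of *Ccl2*, *Ccl7*, *Ccl11*, *Ccl12* and *Ccl1* (125.8 kb), on the same chromosome and known for drawing monocytes and eosinophils, summed to 0.576 and 0.208 with sevoflurane and 0.663 and 0.630 with desflurane.

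Genes around the chemokines were counted in 4 lists. In the list of chemokine-like ligands that the naming rule leaves out, 6 of 8 genes were above the minimum with sevoflurane and 7 with desflurane, and *Pf4* alone was called, higher with desflurane (1.17 to 2.44 TPM). Chemerin (*Rarres2*), made by hepatocytes, stood at 1115, 947, 1158 and 903 TPM in the order sevoflurane 0 h, 6 h, desflurane 0 h, 6 h. *Cmtm6* stood at 55.9, 31.2, 60.5 and 36.8, and the cytokine *Mif* at 48.4, 31.1, 49.0 and 51.1. In the list of chemokine scavenging and processing, 7 of 9 genes in the tables were above the minimum with each agent. Syndecan 4 (*Sdc4*), a heparan sulfate proteoglycan of the cell surface, was called higher with both agents (36.7 to 171 and 54.5 to 202 TPM). The scavenger *Gpr182* was called lower with sevoflurane only, and the dipeptidase *Dpp4*, which trims chemokines, stood at 33.5, 36.7, 39.0 and 35.8. *Ndst1*, an enzyme of heparan sulfate synthesis, stood at 25.9, 18.1, 23.4 and 15.5.

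In the list of chemokine signal transduction and adhesion, 2 of 23 genes above the minimum were called with sevoflurane (1 higher, 1 lower) and 3 of 21 with desflurane (2 higher, 1 lower). *Vcam1*, the endothelial ligand of leukocyte integrins, was called higher with both agents (3.01 to 7.41 and 4.58 to 10.8 TPM). The G protein subunits *Gnai3*, *Gnb2* and *Gnb1*, the most abundant genes of this list, stayed within 50.3 to 58.0, 27.0 to 31.7 and 27.4 to 28.2 TPM.

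Among inducers of chemokine genes, 3 of 27 genes above the minimum were called higher with each agent, and 4 lower with sevoflurane and 2 with desflurane. *Irf1*, the transcription factor of interferon signaling, was called lower with both agents, from 19.4 to 4.24 TPM with sevoflurane and from 26.0 to 4.36 with desflurane. *Tlr4*, the receptor of bacterial lipopolysaccharide, was also called lower with both (2.97 to 1.34 and 2.76 to 1.28). Called higher with both were *Nfkbia*, the inhibitor of NF-kB (16.3 to 50.8 and 27.9 to 76.6), *Nfkbiz*, a related nuclear regulator (3.08 to 7.24 and 2.77 to 7.92), and *Il1r1*, the interleukin 1 receptor (19.5 to 63.7 and 15.4 to 65.0). *Ltbr*, the lymphotoxin beta receptor, stood at 54.3, 94.4, 62.5 and 87.2. *Ifng*, *Il6* and *Il17a* were listed at 0 in every library.

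Of the other cell types, red blood cell genes were higher at 6 h, with a summed TPM of 632 and 1673 with sevoflurane and 992 and 1866 with desflurane. All 5 of those above the minimum were called higher with sevoflurane and 0 with desflurane, beside 5.04% and 4.1% of all named genes. *Hbb* stood at 291, 797, 491 and 872 TPM, *Hba1* at 160, 411, 233 and 465 and *Hba-a2* at 158, 411, 232 and 463, and near-identical globin copies can share reads. Sinusoidal endothelial markers summed to 135 and 131 with sevoflurane and 134 and 155 with desflurane, with 0 of 8 called. Markers of B and plasma cells summed to between 0.53 and 2.0 TPM, those of platelets to 0 to 0.96, those of dendritic cells to 4.06 to 5.23 and those of cholangiocytes to 7.05 to 8.67. Pancreatic acinar markers summed to 25.3 to 31.6, of which *Cela1*, a gene that other tissues use too, gave 23.9 to 29.7. Their part in the chemokine levels was not tested.

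**Figure D4:**
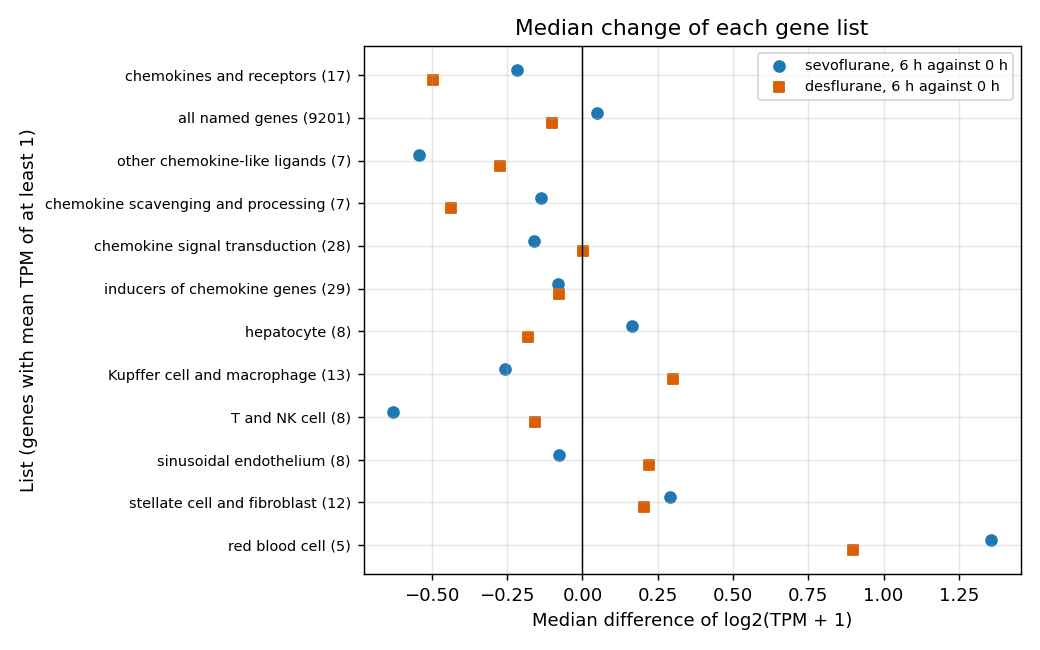
Median difference of log2(TPM + 1) between the 6 h and 0 h library of each agent (circles sevoflurane, squares desflurane) over the 17 chemokine and receptor genes, all named genes, and the lists with at least 5 genes of a mean TPM of 1 or more, whose number stands in brackets. Chemokines and receptors lie at -0.22 and -0.49, macrophage markers on either side of 0 and red blood cell genes to the right.

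The same reads were also assembled without names by the authors, which gives a second value for each member. Of 68 values (17 genes in 4 libraries), 64 had an assembled locus on the same strand and 42 lay within 2% of the named value. Most of the 42 came from loci with the ends of the named gene, which mostly repeated its value. *Ccl5* in the sevoflurane 0 h library, at 4.16 TPM in both, is an example. The count of 42 is therefore no separate check of the named values. An assembled locus need not span the named gene. The loci at *Ccl4* gave 3.18 and 2.68 TPM with sevoflurane and 2.06 and 0.923 with desflurane. They spanned 15322, 1755, 38768 and 739 bp in that order, beside 1473 bp for the named row. The loci at *Cxcl11* gave 8.43 and 9.48 TPM with sevoflurane and 12.1 and 5.04 with desflurane. With sevoflurane the *Cxcl11* loci were thus higher at 6 h where the named row was lower. The loci at *Cxcl9* gave 23.5 and 8.59 TPM with sevoflurane, which is past the rule of size while the named row was not, and 10.4 and 11.3 with desflurane. At *Cxcl10* they gave 1.64 and 1.52 with sevoflurane. In the desflurane 0 h library 2 loci lay over separate parts of the gene, at 1.03 and 2.45 TPM, and at 6 h the locus stood at 1.5. TPM is scaled for length, so values of parts cannot be added, and no call was read from them. At *Xcl1* the 6 h loci stood at 1.17 and 0.520 TPM, above the named values of 0.681 and 0.339. Those loci spanned 947 and 1071 bp, beside 3444 bp for the named row. At *Cxcl1* a locus was assembled in the desflurane 0 h library only, at 5.17 TPM. At *Ccl27* the assembled values were 2.53, 2.82, 2.63 and 2.27, from loci of 3968, 3903, 4537 and 485 bp. The desflurane 6 h locus lay over an end of the gene only. These values therefore cannot show whether the difference seen with desflurane in the named row was present.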

How the data were processed

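RNA sequencing libraries of rat liver, 1 per group, were analyzed from the tables the authors deposited. Per the labels, liver pieces were kept in RNAlater, RNA was prepared with the RNeasy Midi kit and libraries with a TruSeq Stranded Total RNA Gold kit. The submitters' processing notes name HISAT2, SAMtools, StringTie and the build rn6, without versions. The deposited TPM column was treated as a score, since assembled loci alone sum to 1000000 and named genes add 765830 to 788965. The deposited FPKM (fragments scaled for gene length and library size) was an alternative, and the deposited coverage, a signal of mean reads per base, gave the depth.

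Rows of 1 symbol were summed and rows of 200 bp or less left out. Calls, medians and lists were computed in Python 3.11.15 with pandas 2.3.3 after a self-test of the calling rule. Without counts in the tables, counting error could not be given. The members and lists were chosen with earlier results of these data known. Named were all members averaging 1 TPM or more, any other member past the rule, members at 0 throughout and, per list, genes called with both agents and up to 3 of the most abundant. Partners in a pair or cluster and markers at 0 are named with them. *Pf4*, *Gpr182*, *Ccl19*, *Cd163*, *Mrc1*, *Lyz2*, *Rgs5*, *Pdgfrb*, *Nkg7*, *Klrd1* and *Prf1* were named after their values were seen. Alternatives were other folds, minimums, scalings, pseudocounts, rows, the FPKM column and the other control. Promoters came from RefSeq (GRCr8), whose coordinates are separate from those in rn6. Protein sequences were not used here. Some items are not reported here.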

Additional observations from a re-analysis of the deposited data

Results flagged for a closer look

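In 8 of the 17 described members the difference between 6 h and 0 h had opposite signs with the 2 agents. Which members these were depended on the scaling, since some differences were close to 0. Under median-of-ratios scaling *Ccl27* left the group, at -0.032 with sevoflurane and -0.54 with desflurane. *Ccl5* (-0.68 and 0.059, sevoflurane first) and *Cxcl16* (-0.0069 and 0.39) then joined it. The share of all named genes with opposite signs was not computed, so the count is not read as particular to these members. Over all named genes averaging 1 TPM or more, 44.5% of differences were negative with sevoflurane and 61.7% with desflurane. With 1 library per group the difference between the agents could not be tested. On the log2(TPM + 1) scale, the desflurane difference minus the sevoflurane difference was -1.46 for *Ackr3* (-1.28 and 0.18, desflurane first), -1.45 for *Cxcr4* (-0.18 and 1.27) and -1.23 for *Ccl24* (-1.07 and 0.16). It was 1.17 for *Cxcl9* (0.37 and -0.79), 0.70 for *Ccl6* (0.03 and -0.67), -0.69 for *Cxcl10* (-0.58 and 0.11), -0.61 for *Ccl27* (-0.61 and 0.0020) and 0.21 for *Ccl21* (0.20 and -0.0043). For *Ackr3*, *Cxcr4*, *Ccl24* and *Cxcl9* the controls differed by 0.90, 1.35, 0.84 and -0.81 on the same scale (desflurane minus sevoflurane). For *Ccl6* they differed by -0.07.

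An assembled locus without a name lay over *Ackr2*, the atypical receptor of inflammatory CC chemokines, on the opposite strand. It stood at 4.49 TPM in the sevoflurane 6 h library, 1.84 in the desflurane 0 h library and 3.29 in the desflurane 6 h library, and no such locus was assembled in the sevoflurane 0 h library. *Ackr2* itself stood at 0.543, 0.465, 0.489 and 0.274 TPM (sevoflurane 0 h and 6 h, then desflurane).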

How the results depend on the processing

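Counts of called members are given as higher and lower. For the altered folds, minimums, scalings and the FPKM column, the share of all named genes was not computed. These counts are therefore not read as a result about the members. For sevoflurane 6 h against 0 h (1 and 1), a ratio above 1.5 gave 5 lower, a minimum TPM of 1 gave 2 lower, a minimum of 5 gave 0 and 0, no minimum 7 and 7, FPKM 0 and 0, and the other control 0 and 3. For desflurane (0 and 7), a ratio above 3 gave 4 lower, a minimum of 5 gave 2 lower, no minimum 2 and 17, FPKM 4 lower, and the other control 1 and 2. Between the controls (4 and 0), a ratio above 1.5 gave 2 lower, a ratio above 3 gave 2 higher, a minimum of 5 gave 1 higher, no minimum 11 and 2, median-of-ratios scaling 1 lower and FPKM 2 higher. Between the 6 h libraries (0 and 1), a ratio above 1.5 gave 3 and 2, a minimum of 1 gave 2 lower, a minimum of 5 gave 0 lower, no minimum 6 and 14, and FPKM 0 lower. FPKM values are smaller than TPM, so fewer members pass a minimum of 2.

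The median log2 difference of members with sevoflurane (-0.22) was -0.41 for a mean TPM of at least 2, -0.67 for at least 5, -0.054 for any member above 0, -0.36 on FPKM and -0.36 against the other control. With desflurane (-0.49) it was -0.26 for a mean TPM of at least 2, -0.15 for any member above 0 and -0.30 on FPKM. It was negative under every alternative run with either agent. With any member above 0 (the 17 described and the 27 under a mean TPM of 1), 3 lay higher and 15 lower in both 6 h libraries. The same share over all named genes above 0 was not computed, so these counts are not read as a result about the members. *Cxcr4* turned from 1.27 to -0.079 with sevoflurane against the other control, and of 36 alternative values for the 9 called differences this was the 1 that changed sign. Only the other control could change a sign there. A pseudocount keeps the sign, and the scalings moved the libraries too little to turn a ratio above 2. Among the differences not called, 17 of 100 alternative values had the other sign. The cause of these shifts was not tested. Low coverage and 1 library per group limit every value.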
